A study of Mus musculus with 9 samples.

Results

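Open chromatin fell to at most 0.5 times control at 498 sites in the mouse breast carcinoma line D2A1-d when either of a pair of short hairpin RNAs against Med4 was expressed. The sites were chosen from ATAC-seq values: a peak had to hold a mean of at least 50 normalised reads in the non-targeting control (NTC), and at most 0.5 times that mean with hairpin #1 and also with hairpin #4. Among 146734 deposited peaks, 136660 reached the NTC minimum and are called eligible below, and 498 of these (0.364%) met the rule and are called members. Hairpin #1 halved 3754 eligible peaks (2.75%) and hairpin #4 halved 1298 (0.95%), and both counts include the 498. Of these, 3256 were halved by #1 only and 800 by #4 only. The falls from NTC are therefore how the members were chosen, and they are given as a description with no test.

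The 9 libraries fell into 3 groups of 3, labelled as biological replicates: NTC cells (genotype WT), cells with shMed4 #1 and cells with shMed4 #4 (both genotype Med4 Knockdown). All groups are the same line with no further treatment (labelled Untreated), and all carry a transduced hairpin, so NTC is a hairpin control and not an untransduced one. The labels do not say if replicates were transduced separately, so p-values reflect only how far these libraries vary. Values are read counts per peak after the authors' DESeq2 scaling, each peak spans 501 bp, and libraries held 44.8 to 98.9 M reads in peaks, as worked out from the smallest step between values, with 110.0 to 247 at the median peak. Accessibility does not measure the Med4 transcript, so it does not check the knockdown. The taller gene-end peak of Med4 is not a member: it had 544 ± 24.2 normalised reads in NTC, 451 ± 23.5 with #1 and 469 ± 21.4 with #4 (as everywhere below, mean ± SD, n = 3). Of the markers of cell types looked at, gene-end peaks were present for 2 of 8 epithelial genes, with summed means of 231.6 in NTC, 408.8 with #1 and 521.1 with #4, and for 5 of 6 mesenchymal genes, with 9620, 8077 and 8224. The epithelial sum is higher through Krt18 alone (164, 368 and 465), while Cldn7 was lower (67.6, 40.7 and 56.02). The mesenchymal sum is lower mostly through Vim (4155, 3072 and 3085), while Fn1 held 2460, 2340 and 2477, and the part of these markers in the results was not tested. The defining epithelial genes Epcam, Cdh1 and Krt8 had none, 2 of 5 macrophage, 2 of 5 lymphocyte, 1 of 4 endothelial and 1 of 4 fibroblast markers had one, and no marker's gene-end peak is a member.

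Mediator is the large complex that carries signals from transcription factors at enhancers to RNA polymerase II at promoters, and MED4 belongs to its middle module. ATAC-seq reads open chromatin through a transposase that inserts sequencing adapters where DNA is free of nucleosomes, which marks promoters, enhancers and other sites where proteins bind. Enhancers often lie inside or far from the genes they act on, so the nearest gene named for a site here is a label of place and not a measured target. In bulk cells, fewer cells with an open site and a less open site in each cell cannot be told apart.

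Few of the sites lie at promoters, and those that do differ widely in sequence. RefSeq promoter windows (GRCm38.p6, 250 bases before to 50 bases after a start) overlapped 17 of the 478 members on chromosomes with such windows (3.56%), against 7.23% of eligible peaks. The 250 bases before the start are shown for 6 of them, 5′ to 3′ on the gene's strand. They are the tallest member (Pgk1), the promoters near the heparan sulfatase gene Sulf2 and the calprotectin subunit gene S100a8, the window with the most CG (Stk39), the only window with a CRE match (Fahd2a) and the site with the deepest fall under hairpin #1 among the 17 (Chn1). This choice was made after the values were seen. Capitals mark matches to the motifs listed after the sequences.
Pgk1: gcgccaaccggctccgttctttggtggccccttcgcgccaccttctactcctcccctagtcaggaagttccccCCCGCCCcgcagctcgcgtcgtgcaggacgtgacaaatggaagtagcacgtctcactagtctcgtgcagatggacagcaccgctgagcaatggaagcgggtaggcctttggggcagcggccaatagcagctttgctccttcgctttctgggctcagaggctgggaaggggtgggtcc
Sulf2: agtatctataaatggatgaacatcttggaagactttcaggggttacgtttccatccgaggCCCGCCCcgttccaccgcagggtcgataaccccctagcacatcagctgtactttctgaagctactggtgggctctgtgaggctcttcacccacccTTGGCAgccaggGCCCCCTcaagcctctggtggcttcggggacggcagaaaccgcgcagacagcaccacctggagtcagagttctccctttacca
S100a8: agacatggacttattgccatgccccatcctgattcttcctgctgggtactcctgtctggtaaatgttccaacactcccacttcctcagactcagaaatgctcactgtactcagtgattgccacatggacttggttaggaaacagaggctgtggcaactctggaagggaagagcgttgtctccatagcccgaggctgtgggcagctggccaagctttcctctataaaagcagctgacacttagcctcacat
Stk39: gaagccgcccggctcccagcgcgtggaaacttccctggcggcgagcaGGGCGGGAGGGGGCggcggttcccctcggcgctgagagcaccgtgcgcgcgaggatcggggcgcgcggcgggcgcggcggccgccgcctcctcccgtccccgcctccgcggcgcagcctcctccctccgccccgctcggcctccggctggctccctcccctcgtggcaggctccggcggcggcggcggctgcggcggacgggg
Fahd2a: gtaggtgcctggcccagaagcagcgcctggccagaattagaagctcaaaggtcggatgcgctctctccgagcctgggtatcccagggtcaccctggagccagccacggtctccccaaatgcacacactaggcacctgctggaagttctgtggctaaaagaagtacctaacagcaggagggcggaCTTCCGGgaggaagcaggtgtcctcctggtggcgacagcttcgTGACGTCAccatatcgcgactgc
Chn1: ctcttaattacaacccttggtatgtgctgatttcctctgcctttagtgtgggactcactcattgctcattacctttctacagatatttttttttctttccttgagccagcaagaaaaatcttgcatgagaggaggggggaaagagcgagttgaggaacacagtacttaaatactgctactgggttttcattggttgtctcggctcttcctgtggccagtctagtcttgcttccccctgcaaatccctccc
The stretches lie at chrX:106186850-106187099, plus strand (Pgk1), chr2:166155684-166155933, minus strand (Sulf2), chr3:90668821-90669070, plus strand (S100a8), chr2:68471982-68472231, minus strand (Stk39), chr2:127444566-127444815, minus strand (Fahd2a) and chr2:73660424-73660673, minus strand (Chn1). The motifs were searched on both strands, each counted separately where matches overlap: AP-1 TGANTCA, CRE TGACGTCA, TEAD GGAATG, RUNX TGTGGT, ETS CCGGAAG, NF-kB GGNNTTTCC, CTCF core AGGGGGC, the zinc-finger GATA factor motif AGATAA, E-box CACGTG, SP/KLF GGGCGGG, STAT TTCNNGGAA, NFI TTGGCA, FOX TGTTTAC and glucocorticoid receptor AGAACA.

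In whole windows of 300 bases, the SP/KLF letters were found in 7 of the 18 windows over members (38.9%), against 46.2% of the 11651 windows over other eligible peaks and 25.6% of all 32851 windows. The CTCF core was found in 4 of 18 (22.2%), against 16.3% and 10.6%. NF-kB, E-box and STAT letters were in 0 of 18, and in 6.46%, 10.1% and 4.58% of the windows over other eligible peaks. The S100a8 and Chn1 stretches hold no match at all. The member windows ranged from 32.3% to 80% GC with a median of 56.2%, against a median of 60.7% over other eligible peaks, and held a median of 10 CG dinucleotides against 21. A CG count of at least 0.6 of that expected from the base composition, as in a CpG island, was met by 7 of 18 (38.9%) against 70.5%. With 18 windows these shares are a description, and a match of letters is not a bound site. Whole-peak sequence was not analysed here.

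Across the members, NTC means ran from 50.4 to 10895 normalised reads with a median of 206, close to the median of other eligible peaks (209). The median member held 73.5 normalised reads with hairpin #1 and 86.1 with hairpin #4, and the median share of the NTC mean that was left was 37.5% and 44.9%. At most 25% was left at 79 members with #1 and at 4 with #4, and those 4 (at Sqor, Tsku, Nampt and Trappc10) were at or under 25% with both. The lowest share left was 6.35% with #1 and 18.2% with #4. No background level was estimated, so whether signal above background remained at the lowest sites was not tested. At all 498 the highest of the 6 hairpin libraries was under the lowest NTC library, which held for 17.7% of eligible peaks. All 498 were also called lower by limma with each hairpin, where 24.9% of all tested peaks were called lower with #1 and 24.3% with #4. Both counts follow from the rule and support nothing on their own. The stricter condition that every hairpin library lie at or below 0.5 times the lowest NTC library was met by 117.

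Tall peaks were seldom members. Of eligible peaks with an NTC mean of 1000 or more 12 of 23319 (0.0515%) met the rule, against 181 of 30057 (0.602%) at 200 to 500 and 87 of 34025 (0.256%) at 50 to 100. Spread within NTC was similar, with a median coefficient of variation of 7.37% at members and 6.79% at other eligible peaks. Just inside the threshold lay peaks of Alox12, Plcb3 and Rps6kc1, with larger ratios of 0.4997, 0.4997 and 0.4996. Just outside lay peaks of Foxa2, Cd300a and Csf1, at 0.50002, 0.50012 and 0.50014.

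The site with the least signal left by both hairpins together lies inside Sqor, the mitochondrial sulfide oxidase (chr2:122770961-122771462, 5884 bp from a gene end). It held 131, 130.4 and 135 in the NTC libraries, 23.2, 17.04 and 17.6 with hairpin #1 and 20.8, 23.02 and 28.2 with hairpin #4. The hairpin libraries were all far below NTC and overlapped each other (132 ± 2.55 in NTC, 19.3 ± 3.41 with #1 and 24 ± 3.83 with #4). A second and taller member in the same gene, 18610 bp from a gene end, held 439 ± 6.73 in NTC, 94.2 ± 5.18 with #1 and 135 ± 10.03 with #4.

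Dio3 encodes an enzyme that removes iodine from thyroid hormone and ends its action, and a site 34421 bp away held 397, 346 and 353 in the NTC libraries, 24.8, 34.1 and 41.8 with hairpin #1 and 87.4, 114 and 116 with hairpin #4. Here the groups were all apart, with NTC highest and hairpin #1 lowest (9.19% and 28.98% left with #1 and #4). A second Dio3 site, 64214 bp from the gene, held 596 ± 35.7 in NTC, 153 ± 20.1 with #1 and 263 ± 13.7 with #4. Nampt, whose product limits the rate at which cells salvage NAD, had a site 54397 bp away with 337, 241 and 285 in the NTC libraries, 70.4, 57.6 and 61.6 with hairpin #1 and 57.96, 52.4 and 70.6 with hairpin #4, so both hairpins left about the same share (21.98% and 20.98%).

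Tsku, which encodes a secreted leucine-rich proteoglycan, was the nearest gene of a pair of members. The deeper, 23933 bp from the gene, held 395, 356 and 355 in the NTC libraries, 80.03, 77.1 and 61.6 with hairpin #1 and 92.6, 70.3 and 75.8 with hairpin #4. The hairpin groups overlapped and lay far below NTC. The other, 22231 bp from the gene, held 713 ± 21.3 in NTC, 218 ± 13.8 with #1 and 283 ± 19.4 with #4. Inside Trappc10, a subunit of the vesicle-tethering TRAPP complex, a site held 141 ± 11.6 in NTC, 31.9 ± 5.81 with #1 and 32.8 ± 5.63 with #4. Inside Mad1l1, the spindle checkpoint gene, a taller site held 759 ± 96.1 in NTC, 127 ± 15.1 with #1 and 190.4 ± 34.6 with #4.

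Further deep falls were far from any gene body. The site near Zfp608 lay 310609 bp away (15% and 31.3% left with #1 and #4), and that near Chic2 140250 bp away (21.6% and 25.6%). Near Tle3, a Groucho-family corepressor gene, lay 2 members. The one 77100 bp from the gene kept 17.5% and 31.2%, and the one at 62338 bp kept 20.1% and 36.1%. In all, 67 members (13.5%) lay over 100 kb from any protein-coding gene, against 8.83% of eligible peaks.

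**Figure D1:**
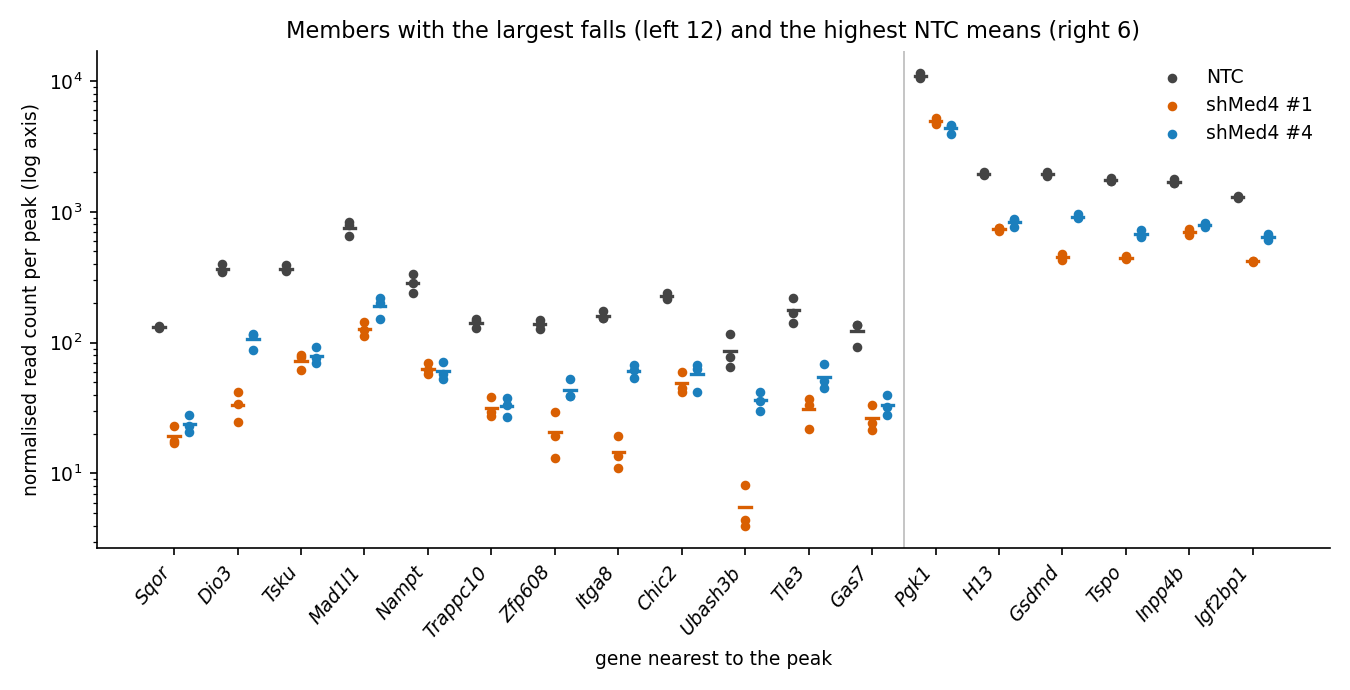
Normalised read count per peak (log axis) in each of the 9 libraries for the 12 members with the lowest ratio of both hairpins to NTC and the 6 members with the highest NTC mean, named by nearest gene. Points are libraries and bars are group means of 3. At every site the NTC libraries lie above all hairpin libraries, and at sites such as Dio3, Itga8 and Gsdmd hairpin #1 also lies below hairpin #4, while at Pgk1 the order is the other way.

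The tallest member is the promoter of Pgk1, the glycolytic phosphoglycerate kinase, whose sequence heads the list above. It held 10482, 11434 and 10768 in the NTC libraries, 4847, 4727 and 5229 with hairpin #1 and 3922, 4529 and 4613 with hairpin #4. Its NTC mean of 10895 is far above that of the next member, and 45.3% and 39.97% was left with #1 and #4. The next tallest sites lie within or close to H13, the signal peptide peptidase gene (1956 ± 43.1 in NTC, 743 ± 22.7 with #1 and 842 ± 62.9 with #4), and Gsdmd, the gasdermin of pyroptosis (1930.3 ± 66.7 in NTC, 452 ± 20.3 with #1 and 921 ± 35.04 with #4). They are followed by sites in Tspo, the mitochondrial translocator protein (1758 ± 55.1 in NTC, 447 ± 12.97 with #1 and 674 ± 50.6 with #4), in Inpp4b, a phosphoinositide phosphatase (1705 ± 60.6 in NTC, 704 ± 35.5 with #1 and 797 ± 27.7 with #4), and in Igf2bp1, an mRNA-binding protein (1299.7 ± 29.4 in NTC, 419 ± 5.28 with #1 and 647 ± 35.8 with #4). A site 41378 bp from the collagen gene Col6a2 held 1016 ± 50.96 in NTC, 191 ± 6.51 with #1 and 457 ± 11.1 with #4. At these H13, Gsdmd, Tspo, Inpp4b, Igf2bp1 and Col6a2 sites every #1 library lay below every #4 library, and at Pgk1 every #4 library lay below every #1 library.

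Only 29 members (5.82%) lay at a gene end, meaning at most 1 kb from an end of any protein-coding gene, against 11.6% of eligible peaks and 9.30% of eligible peaks of like NTC height. After Pgk1 the tallest of them lies 744 bp from an end of Bmf, a pro-apoptotic BCL2-family gene, and held 934 ± 28.5 in NTC, 199.6 ± 30.1 with #1 and 417 ± 61.6 with #4. The Naip2 promoter peak, at an inhibitor of apoptosis and inflammasome receptor gene, held 710.0 ± 32.5 in NTC, 323 ± 18.8 with #1 and 326 ± 15.5 with #4. The Sulf2 promoter peak held 640.1, 590.5 and 642 in the NTC libraries, 183, 226 and 221 with hairpin #1 and 208, 233 and 250.5 with hairpin #4, and the hairpin groups overlapped. The S100a8 promoter peak held 553, 507 and 593 in the NTC libraries, 162, 159.8 and 145 with hairpin #1 and 269, 217 and 208 with hairpin #4, with every #1 library below every #4 library. Pcgf5, a Polycomb subunit, had a promoter member with 546 ± 11.1 in NTC, 242 ± 35.8 with #1 and 260.2 ± 16.04 with #4, and Padi1, a peptidylarginine deiminase, a gene-end member with 547 ± 33.96 in NTC, 188 ± 14.6 with #1 and 209.8 ± 20.9 with #4.

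Lower gene-end members included Fahd2a (344 ± 27.1 in NTC, 111 ± 13.9 with #1 and 169 ± 24.8 with #4) and Hic1, a transcriptional repressor lost in many tumours (341 ± 29.7 in NTC, 129.7 ± 15.3 with #1 and 143 ± 4.88 with #4). A Chn1 promoter window inside that Rac GTPase-activating protein gene, 49757 bp from its ends, held 73.4, 96.5 and 57.3 in the NTC libraries, 12, 5.68 and 16.5 with hairpin #1 and 42.4, 33.3 and 33.5 with hairpin #4. A pair of members lay in the Ugt1a cluster near an end of Ugt1a6a. The one 628 bp from it kept 45.3% and 40.1% with #1 and #4, and the one 75 bp from it, inside Ugt1a6b and over the Ugt1a6a promoter window, kept 34.7% and 44.7%. Genes of that cluster overlap, and Naip2 has close copies, so reads there may be shared between copies. Within 0.5 kb of a gene end the members' share was 3.61% against 8.05% of eligible peaks, and within 2 kb 8.23% against 17.0%, below the eligible share at each distance.

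Some members lay close to microRNA genes, short RNAs that pair with target transcripts through bases 2 to 8, the seed. The hairpin of Mir100 lay 1584 bp and that of Mirlet7a-2 3127 bp from the site named for Ubash3b, and those of Mir212 and Mir132 lay 2513 and 2807 bp from the Hic1 peak. The RefSeq mature sequences of 3 of them are shown with the seed in capitals, because they name what lies beside the site with the lowest share left by hairpin #1 and beside a promoter member.
mmu-miR-100-5p: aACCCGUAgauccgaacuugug
mmu-miR-132-3p: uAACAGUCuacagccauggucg
mmu-miR-212-3p: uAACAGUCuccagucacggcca
The 3p arms of miR-132 and miR-212 share a seed, and that of miR-100-5p differs. The site between Mir100 and Mirlet7a-2 held 77.5, 117 and 65.5 in the NTC libraries, 4.002, 8.11 and 4.401 with hairpin #1 and 30.3, 35.8 and 42.3 with hairpin #4. Levels of these RNAs were not measured here.

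Some members lay near one another. Linking members whose centres lie within 50 kb gave 34 groups with 77 members, and 421 members stood alone. The largest group, of 5, lay in an 85.6 kb stretch inside Gas7, a growth-arrest gene that binds actin. Those 5 sites held NTC means of 122 to 843 normalised reads and kept a median of 24.3% with #1 and 39.6% with #4. The tallest held 801, 863 and 864 in the NTC libraries, 206, 185 and 223 with hairpin #1 and 356, 364 and 353 with hairpin #4, and #1 lay below #4 in every library. The deepest held 122 ± 24.9 in NTC, 26.4 ± 6.12 with #1 and 33.3 ± 5.902 with #4. Of the 17 other eligible peaks nearest to Gas7, 12 were lower than NTC with both hairpins and 3 were higher with both, and their median log2 ratios were -0.64 and -0.58 for #1 and #4. Over all eligible peaks that are not members 40.99% were lower with both hairpins, which is the background of such counts here and below.

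Stk39, a stress kinase of the SPAK family that acts on ion cotransporters, had the most members: 6 of its 14 eligible peaks. One is its promoter peak (235, 198 and 189 in the NTC libraries, 61.6, 67.3 and 51.7 with hairpin #1 and 65.7, 101 and 81.1 with hairpin #4), a second lies 679 bp inside the gene (319.9 ± 4.56 in NTC, 109.5 ± 6.13 with #1 and 139 ± 5.83 with #4), and the deepest lies 94762 bp from an end (339.9 ± 36.6 in NTC, 62.8 ± 15.99 with #1 and 134 ± 13.8 with #4). The 8 peaks of Stk39 that are not members had median log2 ratios of -0.97 and -0.54, and 7 were lower with both hairpins. In its 10 Mb window all eligible peaks had medians of -0.28 and -0.17.

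Phactr1, a regulator of actin and of protein phosphatase 1, had 4 members among 37 eligible peaks, in a 48.9 kb stretch. Of a neighbouring pair, the first held 397 ± 12.02 in NTC, 93.6 ± 14.4 with #1 and 185 ± 24.6 with #4, and the second 407 ± 8.995 in NTC, 66.9 ± 11.4 with #1 and 139.9 ± 13.4 with #4. The 33 other peaks had median log2 ratios of -0.40 and -0.54, 26 of them lower with both hairpins and 0 higher with both. Arhgap10 had 4 of 69, where the tallest held 388 ± 6.65 in NTC, 128 ± 3.11 with #1 and 129.8 ± 13.7 with #4 and the other 65 had medians of -0.53 and -0.44. Cgnl1, encoding paracingulin of cell junctions, had 3 of 28, and Tns3, a tensin of focal adhesions, 3 of 69. Hrh3, the H3 histamine receptor gene, and its neighbour Osbpl2, an oxysterol-binding protein gene, shared a group of 3, in which the Hrh3 promoter peak held 254 ± 31.5 in NTC, 74.3 ± 8.33 with #1 and 127 ± 14.03 with #4. Of the 385 genes nearest to a member within 100 kb, 352 had 1 member, 27 had 2 and 6 had 3 or more.

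**Figure D2:**
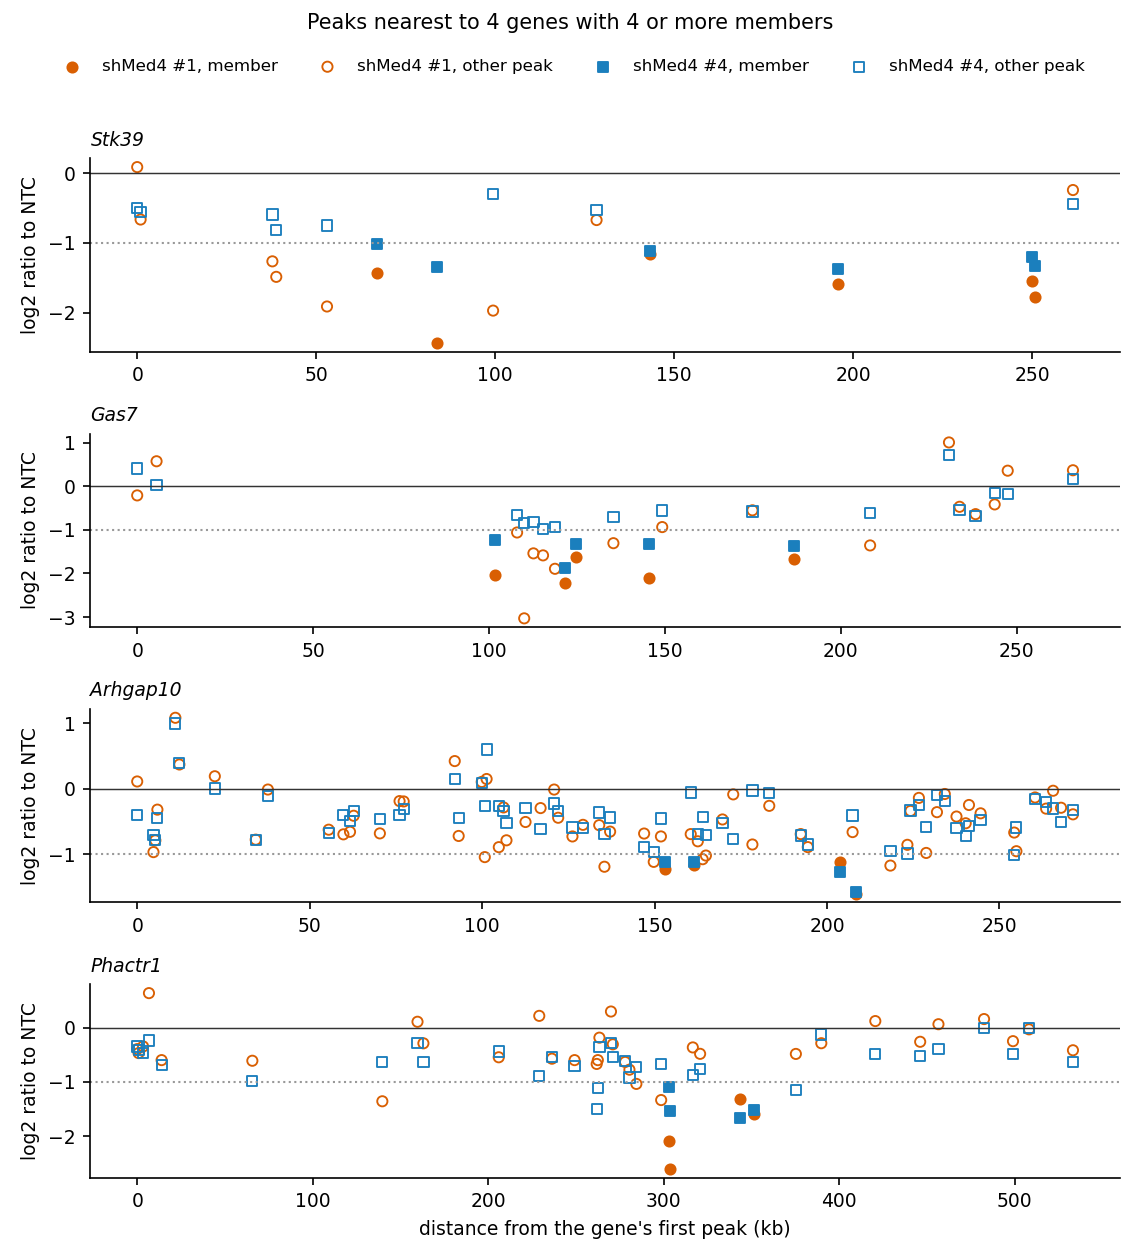
Log2 ratio of each hairpin mean to the NTC mean at eligible peaks nearest to Stk39, Gas7, Arhgap10 and Phactr1, by distance in kb from the gene's first peak. Filled marks are members and open marks other peaks, circles stand for hairpin #1 and squares for hairpin #4, and the dotted line is the rule's limit. Most open marks lie below 0 around the filled ones, and each gene also has open marks above 0: 1 in Stk39 and 7 in Phactr1, with hairpin #1 only, and with both hairpins in Gas7 and Arhgap10.

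Genes were also read by function, in 21 lists written with earlier results of these data known. Over all protein-coding genes with an eligible peak within 100 kb, 385 of 17348 (2.22%) had a member. Per peak, 431 of the 124594 eligible peaks within 100 kb of a gene (0.346%) were members. A gene with more peaks more readily has a member, so shares of peaks are given too. Thyroid, retinoid and steroid hormone signalling had 7 members among 460 peaks (1.52%) and the most genes with a member, 5 of 32 (15.6%). Besides Dio3 these were the nuclear receptor partner Rxra (32.6% and 40.6% left with #1 and #4 inside the gene, and 39% and 39.5% at a site 55621 bp away), the thyroid hormone receptor Thrb (49.1% and 45.04%), the coactivator Ncoa1 (31.4% and 34.7%) and the corepressor Ncor1 (49.2% and 42.04%). The Ncoa1 site held 393, 387 and 379.6 in the NTC libraries, 129, 118 and 118 with hairpin #1 and 142, 121 and 139 with hairpin #4, with the hairpin groups overlapping. Of these 7 members 4 lay in or at the gene named. Rxra lies on chromosome 2, and Dio3 and Ncoa1 on chromosome 12. On these chromosomes 0.791% and 0.787% of all eligible peaks were members, above the 0.346% over all genes. The shares of these lists are descriptions, since lists and sites were both chosen with results known.

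NF-kB regulators and targets had 4 of 36 genes (11.1%) and 4 members among 369 peaks (1.08%). The site 38324 bp from Tnfaip3, the NF-kB inhibitor A20, held 235, 213 and 243 in the NTC libraries, 54.4, 30.01 and 33.01 with hairpin #1 and 99.5, 88.2 and 77.6 with hairpin #4. That 1493 bp from Ccl2, the monocyte chemokine, held 447, 456 and 431 in the NTC libraries, 122, 89.2 and 96.8 with hairpin #1 and 246, 178 and 242 with hairpin #4. In both, every #1 library lay below every #4 library. The Ptgs2 site, near the cyclooxygenase COX-2 gene, held 426 ± 31.3 in NTC, 203 ± 21.99 with #1 and 195 ± 1.14 with #4, and the Birc2 site, in an inhibitor of apoptosis gene, 55.4 ± 16.4 in NTC, 24.5 ± 9.105 with #1 and 25.7 ± 3.31 with #4. The Birc2 NTC libraries (67.8, 61.6 and 36.8) spread widely around a low mean.

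Adhesion and matrix lists each gave a few sites. Members were 0.882% of peaks for focal adhesion and actomyosin and 0.496% for integrins and adhesion. They were 0.584% for collagens and matrix and 0.678% for matrix remodelling, against 0.346% over all genes. Focal adhesion and actomyosin genes had 3 of 36 (Acta2, Gas7 and Src) with 7 members, 5 of them in Gas7. A site 7147 bp from Acta2, smooth muscle actin, held 226 ± 4.99 in NTC, 81.2 ± 6.54 with #1 and 103 ± 6.56 with #4, and one inside the kinase gene Src 187 ± 20.03 in NTC, 81.5 ± 7.73 with #1 and 93.4 ± 7.54 with #4. Integrins and adhesion genes had 2 of 29: a site inside Itga8, the alpha-8 integrin, held 153, 175 and 155 in the NTC libraries, 13.6, 19.5 and 11 with hairpin #1 and 53.6, 61.4 and 67.03 with hairpin #4, and one inside Itgb2, the leukocyte beta-2 integrin, 203 ± 13.4 in NTC, 91.3 ± 3.83 with #1 and 82.01 ± 14.6 with #4. Collagens and matrix had 3 of 40 (Col5a1, Col6a2 and Tsku), with 511 ± 34.6 in NTC, 198 ± 10.4 with #1 and 183 ± 23.3 with #4 at the Col5a1 site. Matrix remodelling had 2 of 33, with sites near Lox, the collagen crosslinking oxidase (115 ± 9.91 in NTC, 22.1 ± 6.15 with #1 and 49.6 ± 12.3 with #4), and Mmp13, a collagenase (80.9 ± 6.13 in NTC, 30.8 ± 3.17 with #1 and 40.2 ± 9.95 with #4).

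Redox, sulfide and NAD metabolism had 3 of 37 genes (Aldh3a1, Nampt and Sqor) and 4 members among 268 peaks (1.49%). Sqor lies on chromosome 2 and Nampt on chromosome 12, with the higher shares of members given above. The Aldh3a1 site, near an aldehyde dehydrogenase gene, held 693 ± 63.1 in NTC, 302 ± 20.6 with #1 and 329.9 ± 17.9 with #4. Membrane traffic and small GTPases had 3 of 37 (Rab31, Rhob and Trappc10) and 0.674% of peaks. There 34.02% and 49.1% was left at Rab31 and 25.1% and 47.4% near Rhob. Lists with 1 gene each were tumour dormancy regulators (Mapk14, the p38 kinase), cell cycle (Cdk6), Mediator subunits (Cdk8, the Mediator kinase), TGF-beta and BMP (Id2), Wnt (Tle3), Notch (Maml3), YAP and TEAD targets (Vgll4), EMT factors (Tcf4) and angiogenesis (Sema3e). Per peak, the shares of these lists ran from 0.175% (TGF-beta and BMP) to 0.384% (Wnt), near or below the 0.346% over all genes. The site inside Cdk8 held 224, 230.0 and 223 in the NTC libraries, 80.03, 91.7 and 85.8 with hairpin #1 and 80.4, 107 and 77.6 with hairpin #4. The Mapk14 site was low, at 52.4 ± 1.68 in NTC, 24.7 ± 5.603 with #1 and 23.6 ± 6.98 with #4. AP-1 and immediate early factors (22 genes), MAP kinase feedback (34), epithelial junctions (34) and the interferon response (28) had 0 members. They hold 260, 495, 298 and 185 eligible peaks. With so few peaks and 0.346% members over all genes, a count of 0 does not set these lists apart. With the nearest gene limited to 20 kb 28 members, and with the gene itself holding the peak 22, belonged to listed genes, against 43 as reported.

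The hairpins were then set against each other at the members, a difference that the rule bounds. By the limma fit over all peaks, 181 of the 498 members (36.3%) were called between #4 and #1, where 41.6% of all tested peaks were called, and 42.4% of other eligible peaks of like NTC height. The calls went mostly one way: 170 members (34.1%) were higher with #4 and 11 (2.21%) lower, while over all tested peaks 20.4% were higher and 21.2% lower. Of the members 381 (76.5%) had a lower mean with #1 than with #4, against 49.2% of eligible peaks. Hairpin #1 also halved more eligible peaks than #4, as given above, and the rule bounds both means, so the direction of these calls is not independent of it. The 11 lower calls became 19 with quantile normalisation, and 7 at an adjusted p under 0.01 or in a fit of these 2 groups alone.

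**Figure D3:**
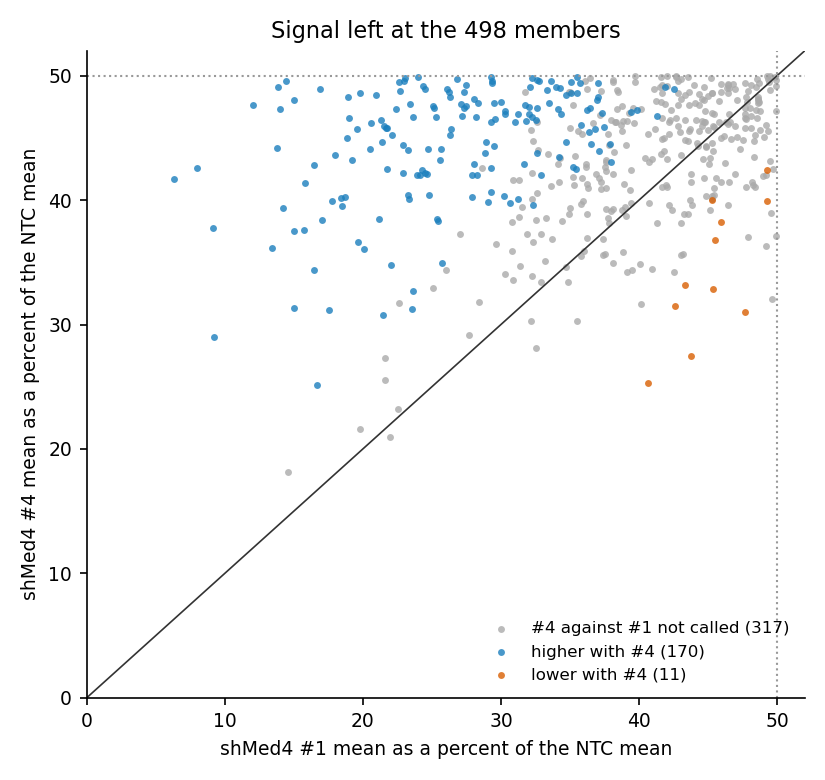
Share of the NTC mean left with hairpin #4 against that left with hairpin #1 at the 498 members, in percent, with the line of equality and dotted lines at the rule's limit. Colour marks members called higher with #4 (170), lower with #4 (11) or not called (317) by limma. Most sites crowd toward the upper limit with #4 and spread far to the left with #1.

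The Ubash3b site given above, between Mir100 and Mirlet7a-2, had the largest (log2 difference 2.55, SE 0.34, limma adjusted p = 1.5e-07). Its #1 libraries held 4.00 to 8.11 normalised reads, and the difference was 2.66 with a pseudocount of 0.5 and 1.98 with 5. A site 225653 bp from Trib2, a pseudokinase gene, held 196, 239 and 214 in the NTC libraries, 10.4, 16.2 and 25.3 with hairpin #1 and 95.2, 88.2 and 93.5 with hairpin #4 (log2 difference 2.43, SE 0.22, limma adjusted p = 3.18e-11). The Itga8 site came next (log2 difference 2.00, SE 0.24, limma adjusted p = 8.39e-09). A site inside Adgb, androglobin, held 249 ± 17.5 in NTC, 29.98 ± 8.81 with #1 and 119 ± 38.2 with #4 (log2 difference 1.93, SE 0.20, limma adjusted p = 7.47e-10). One 105909 bp from Bmp4, a growth factor, held 265 ± 22.8 in NTC, 36.7 ± 7.02 with #1 and 130.3 ± 23.9 with #4, and one inside Lrrc9 held 763 ± 25.5 in NTC, 107 ± 12.6 with #1 and 361 ± 15.9 with #4 (log2 difference 1.76, SE 0.09, limma adjusted p = 2.47e-17).

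Fewer sites went lower with #4. A site 2092 bp from Slc35c1, the GDP-fucose transporter, held 206, 208 and 234 in the NTC libraries, 83.2, 94.9 and 106 with hairpin #1 and 73.5, 54.99 and 49.4 with hairpin #4 (log2 difference -0.68, SE 0.16, limma adjusted p = 0.000995). Its groups did not overlap. A site 20981 bp from Bnip3l, a mitophagy receptor gene, held 796 ± 58.1 in NTC, 379 ± 24.6 with #1 and 247 ± 31.6 with #4 (log2 difference -0.62, SE 0.09, limma adjusted p = 2.99e-07). Inside Magi2, a scaffold gene, a site held 581 ± 10.1 in NTC, 248 ± 14.99 with #1 and 183 ± 30.1 with #4, and 1852 bp from Pla2g15, a lysosomal phospholipase, 458 ± 38.8 in NTC, 199 ± 6.24 with #1 and 152 ± 7.63 with #4. Mbd5 (log2 difference -0.66, SE 0.25, limma adjusted p = 0.0339) and Cd180 (log2 difference -0.47, SE 0.19, limma adjusted p = 0.0454) were close to the threshold. Both lost the call without NTC replicate 1 or 3, #1 replicate 1 or 2, or #4 replicate 3 (adjusted p by limma 0.0507 to 0.098 for Mbd5, 0.0617 to 0.161 for Cd180), and Cd180 also without #1 replicate 3 or #4 replicate 2 (0.0943 and 0.0835).

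Falls of the chosen size were next read in libraries that took no part in the choice. Applying the rule to 2 replicates of each group and reading the third gave 568, 591 and 534 sites when replicate 1, 2 and 3 was left out. In the replicate left out, both hairpins lay below NTC at 567 of 568, 571 of 591 and 524 of 534 of these sites, against 39.9%, 38.9% and 38.2% of eligible peaks. Both ratios share the NTC library left out. The full fall, to at most 0.5 times NTC with both, was met again by 299 (52.6%), 281 (47.5%) and 261 (48.9%), against 0.510%, 0.558% and 0.658% of eligible peaks in the same replicate. The medians left were 38.2%, 40.8% and 39.0% with #1 and 48.3%, 48.0% and 47.1% with #4, close to those of the members with #1 and nearer the limit with #4. The direction held in the replicate left out at nearly all sites, while about 1 site in 2 crossed the limit again. Libraries of a group vary little, with median coefficients of variation at members of 7.37% in NTC, 12.3% with #1 and 14.1% with #4. The direction was thus nearly fixed by the 2 replicates used to choose, and these counts are a description. The libraries left out are of the same line and the same hairpins.

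Members lay inside protein-coding genes about as often as other peaks (274, 55.0%, against 53.2% of eligible peaks), but farther from gene ends, with a median of 28.3 kb against 16.3 kb. Nearby peaks were also lower. Among 147 other eligible peaks within 2 kb of a member, the median log2 ratio to NTC was -0.58 with #1 and -0.47 with #4, and 82.3% were lower with both. At 5 to 10 kb the medians were -0.25 and -0.19 (557 peaks, 59.4% lower with both), and beyond 1000 kb -0.00 and -0.01 (84389 peaks, 36.9%). These are other peaks in the same libraries, and the values are a description. The nearest eligible peak on each side within 20 kb was lower with both hairpins in 525 of 784 cases (67.0%) and higher with both in 107, of which 10 had at least doubled with both.

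**Figure D4:**
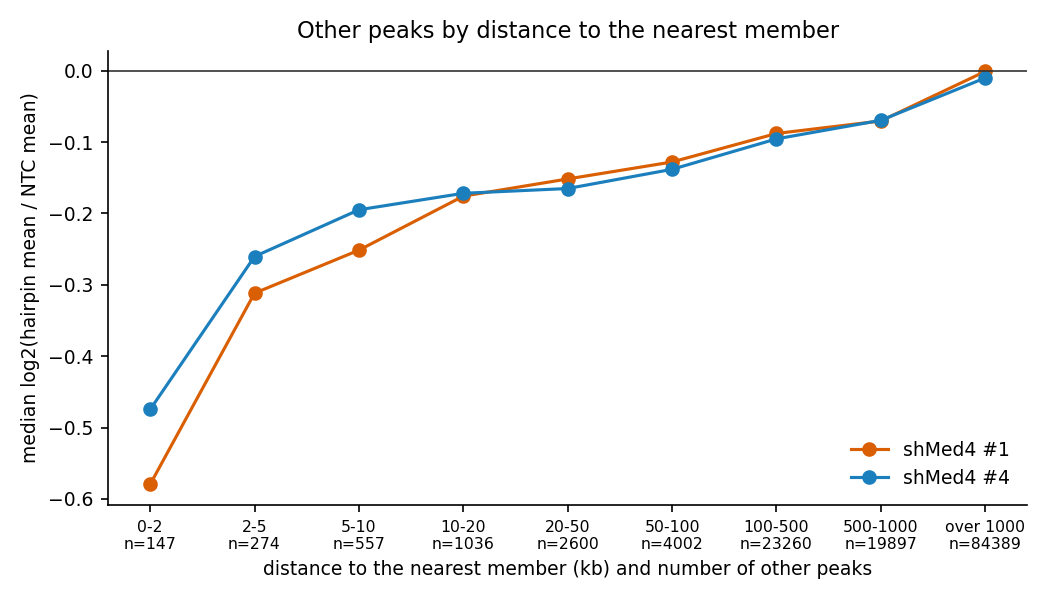
Median log2 ratio of each hairpin mean to the NTC mean at eligible peaks that are not members, by distance to the nearest member in kb, with the number of peaks in each class. Both lines start lowest within 2 kb, at -0.58 and -0.47, and lie near 0 beyond 1000 kb.

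Members were unevenly spread over chromosomes. Chromosome 2 held 88 (0.791% of its eligible peaks), chromosome 12 held 43 (0.787%) and chromosome 13 held 42 (0.734%), while chromosome 17 held 11 (0.172%). The medians of all eligible peaks were low on 2 of these: chromosome 2 had log2 medians of -0.33 with #1 and -0.18 with #4. Those of chromosome 12 were -0.26 and -0.17, and those of chromosome 13 were -0.03 and -0.14. With each chromosome's median taken out before the rule, an alternative added after seeing the data, 351 sites met it, 329 of them members. Chromosome 2 then kept a count of 32, chromosome 12 of 11 and chromosome 13 of 25. Chromosomes 1 and 6 went from 25 to 34 and from 17 to 24. Sqor, Itga8, Stk39, Sulf2, Rxra and Fahd2a lie on chromosome 2, and Dio3, Nampt, Ncoa1 and Lrrc9 on chromosome 12. With medians taken out, the Fahd2a site and the 2 Lrrc9 members no longer met the rule. The log2 ratios with #4 at the Fahd2a site and the taller Lrrc9 site were -1.03 and -1.08 as deposited. The Stk39 members at -1.02 with #4 and at -1.16 with #1 dropped out too. Of 273 windows of 10 Mb with eligible peaks 185 held a member, and 26 windows held 5 or more, with 181 members in all. The window from 40 to 50 Mb on chromosome 13, which holds Phactr1, had the most by number (14 of 796 peaks, 1.76%), and the share was highest from 60 to 70 Mb on chromosome 2 (10 of 377, 2.65%).

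**Figure D5:**
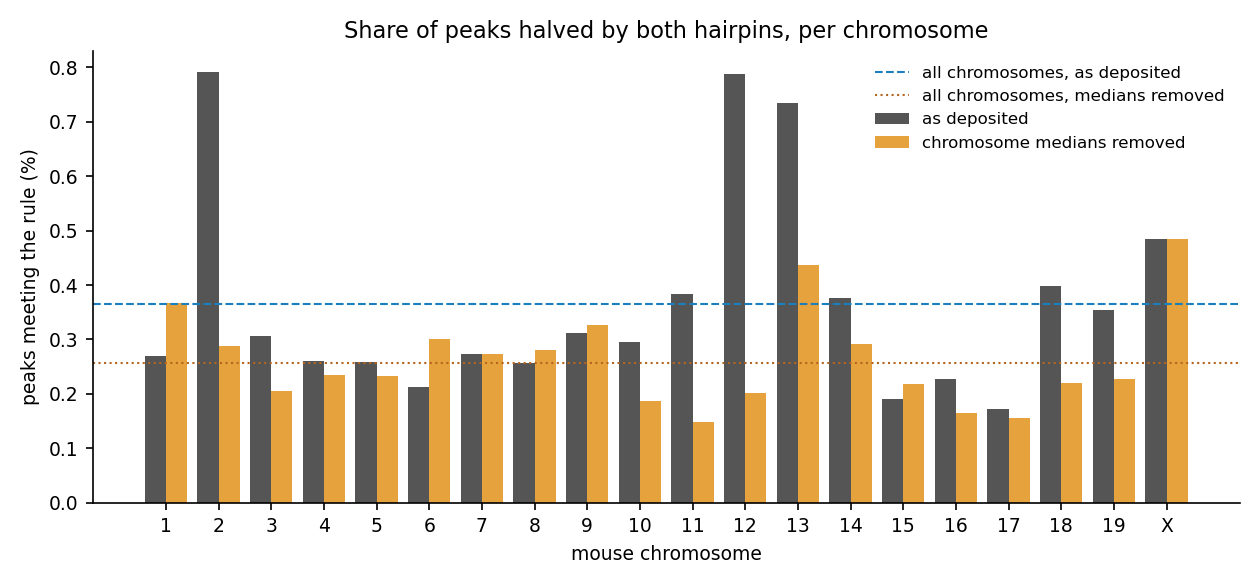
Percent of eligible peaks on each mouse chromosome that were at or below 0.5 times NTC with both hairpins, as deposited and with the chromosome's own median log2 ratio removed. The dashed and dotted lines are the shares over all chromosomes as deposited (0.364%) and with medians removed (0.257%). As deposited chromosomes 2, 12 and 13 stand highest. With medians removed chromosome 12 (0.201%) lies below the dotted line, chromosome 2 (0.288%) just above it and chromosome 13 (0.437%) well above it.

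The size of the set depends on scaling. Centred on gene-end peaks, which shifts the median log2 ratio of eligible peaks from -0.04 to 0.07 with each hairpin, 272 sites met the rule, all of them members. Centred on peaks away from gene ends (medians -0.06 and -0.07) 574 did, and these included all 498.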

How the data were processed

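ATAC-seq libraries of D2A1-d cells were measured in 3 groups of 3 (NTC, shMed4 #1, shMed4 #4). The authors' deposited values are a signal per peak: read counts scaled by DESeq2, per the name of the deposited table. Trim Galore, BWA, MACS2, featureCounts and Subread are listed per the submitters' processing notes, with mm10 and GRCm38 as builds. Versions, filters and how peaks were pooled are not given in the sources used here. Positions are copied from peak names, with no source for a 0-based or 1-based start.

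Group means gave the rule's ratios. limma 3.58.1 in R 4.3.3 (lmFit, then eBayes with trend) was fitted once to log2(value + 1) in all 9 libraries over 146729 peaks, leaving out means under 10, with Benjamini-Hochberg adjustment over all of them at 0.05, and was tested on simulated data. Fold changes on this scale understate the change of low peaks. Python 3.11.15 was used for the rest. Nearest genes are RefSeq protein-coding genes (GRCm38.p6), up to 100 kb for gene lists, and a gene end means within 1 kb of either end.

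Members and gene lists were chosen with earlier results of these data known. Sites were named by rule: the 12 lowest ratios, the 12 highest NTC means, the 12 tallest gene-end sites, the 6 largest groups, the 6 largest and 6 smallest called hairpin differences, up to 3 per gene list, 3 just inside and 3 just outside the threshold, and genes with 3 or more members. Single sites outside this rule (at Chn1, and beyond 3 in a list) were named after their values were seen. Alternatives changed the rule, scaling, pseudocount, filter, threshold, distances and libraries.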

Additional observations from a re-analysis of the deposited data

Results flagged for a closer look

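The hairpins differed from each other at part of the members, by limma's test of #4 against #1 in 3 libraries each. Of the members 36.3% were called, against 41.6% of all tested peaks. By direction, 170 members (34.1%) were higher with #4 and 11 (2.21%) lower, where 20.4% and 21.2% of all tested peaks were. The rule bounds both means and #1 halved more eligible peaks than #4, so this direction is not independent of the rule. The difference was largest at the site named for Ubash3b, with a log2 difference of 2.55, higher in 3 of 3 #4 libraries than in any #1 library. The most negative lay near Slc35c1, at -0.68, with 3 of 3 #4 libraries below every #1 library.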

How the results depend on the processing

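The number of members, 498, became 85 at a ratio of at most 0.4, 1971 at 0.6, 272 when centred on gene-end peaks and 117 when every hairpin library had to reach 0.5 times the lowest NTC library. It was 483 to 557 with 1 library left out, with 421 to 482 of the 498 shared. The 11 members lower with #4 became 19 after quantile normalisation, 7 in a fit of only those 2 groups and 7 at an adjusted p of 0.01. The share at gene ends was 3.61% within 0.5 kb, members linked to another were 34 within 10 kb, and members of listed genes were 28 within 20 kb and 22 where the gene holds the peak. No direction reversed, but the falls from NTC were chosen by the rule and the named hairpin differences were picked from called ones. The lack of reversals was therefore nearly fixed by the choice and supports nothing on its own. With 1 library left out, members called between hairpins were 163 to 182 (higher 147 to 171, lower 8 to 16). Over all peaks, lower calls were then 31170 to 38432 with #1 and 29634 to 35921 with #4. Whether same-numbered libraries were prepared together is not given in the labels. Correlations of deviations ran from -0.0109 to 0.0727 for same-number pairs and from -0.103 to 0.0414 for other pairs. Same-number pairs of #1 with #4 gave 0.0727, -0.0109 and 0.0542 for replicates 1, 2 and 3. With a replicate block, 189 members were called between hairpins (175 higher, 14 lower), and over all peaks 37934 were lower with #1 and 37136 with #4. Count models with edgeR or DESeq2 and the central part of each peak's sequence were not run. Low #1 values, such as the 4.00 to 8.11 normalised reads at Ubash3b, limit the precision of single differences.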
